A study of Mus musculus with 31 samples.

Results

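The livers compared here came from *hFIX-R29X* mice that received either *Upf3b*-GalNAc-ASO or Control-GalNAc-ASO, both at 20 mg/kg. They were chosen by treatment and dose and not by a measured value, though with earlier results of these data known. They are 11 of the 31 mice of the series: 5 with *Upf3b*-GalNAc-ASO (2 female and 3 male) and 6 with Control-GalNAc-ASO (3 female and 3 male). All mice carry a human factor IX minigene with the R29X nonsense mutation and lack the mouse factor IX gene. The human transthyretin promoter drives the minigene, mainly in hepatocytes. The mice were adults of 8 to 14 weeks, received 6 subcutaneous doses at intervals of 5 days (the labels call the same dosing weekly, and whether the mg/kg stand for each injection or for a week is not settled in the sources used here) with livers taken 48 h after the final injection. The other groups of the series are 11 mice given DPBS, the vehicle, and mice at lower doses (5 with *Upf3b*-GalNAc-ASO at 10 mg/kg and 4 with Control-GalNAc-ASO at 15 mg/kg), which carry the same transgene and are used only for values set beside those at 20 mg/kg. RNA of whole liver was measured in TPM (values scaled to the same total in every library) for 31172 gene symbols. Since 71.0% to 77.5% of a mouse's positive values were whole multiples of 1 step shared by all genes, these TPM appear not to be divided by length, so levels, sums and abundance ranks across genes are shares of reads rather than of molecules. A gene was tested where the median of at least 1 of the 2 groups reached 5 TPM, which left 9376 genes.

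Nonsense-mediated decay (NMD) removes mRNAs whose translation ends at a premature stop codon. Exon junction complexes left on the mRNA downstream of such a stop are bound by UPF3B, which links them to UPF2 and to the helicase UPF1, and SMG proteins then lead the mRNA to degradation. Transcripts differ in how far they depend on UPF3B, and UPF3A is its paralog. A gapmer ASO pairs with its target RNA and recruits RNase H1, which cuts the RNA within the DNA gap. GalNAc is bound by the asialoglycoprotein receptor of hepatocytes, so the cells reached are mainly those that carry out the metabolic and secretory work of the liver. That work is divided along the lobule: hepatocytes near the central vein make glutamine, bile acids and drug-metabolising enzymes, and those near the portal vein carry out urea synthesis and gluconeogenesis.

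The ASO is shown because every comparison starts from its target. It has 16 bases, with 3 modified (cEt) bases at each end around a gap of 10 DNA bases. The site is the stretch of the *Upf3b* mRNA that it matches in full, and *Upf3b* was the only gene with such a match among annotated transcripts.
*Upf3b* ASO, 5′ to 3′, wings in capitals: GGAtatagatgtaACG
Site in *Upf3b*, 5′ to 3′ on the mRNA strand: cgttacatctatatcc
The site lies at chrX:37091973-37091988 (GRCm38), on the minus strand, in exon 10 of 10. It covers bases 2034 to 2049 of a transcript of 2344 bases, within the 3′ UTR (the coding bases are 92 to 1507). 

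*Upf3b* mRNA was the first check of the labels. It stood at 9.37, 2.68, 2.57, 16.7 and 7.68 TPM in the 5 *Upf3b*-GalNAc-ASO mice (here and below in the order of replicates 1, 2, 4, 5 and 6) and at 85.3 to 135 TPM with a median of 113 in the 6 control mice. No *Upf3b*-GalNAc-ASO mouse came near the control range. The mean was 7.04% of the control mean (7.80 ± 5.82 TPM, SD, n = 5, against 111 ± 21.8 TPM, SD, n = 6), and DPBS mice had 97.3 ± 33.2 TPM (SD, n = 11). The difference in means was -103 TPM (two-sided exact permutation test, p = 0.00433, the smallest that its 462 splits can give), and the log2 fold change was -3.87 ± 0.40 (SE, adjusted p = 1.59e-05). That call was kept whichever single mouse was left out. With the mouse gene deleted, *F9* stayed at 0 to 6.14 TPM in all 11 mice and below the filter on low values, and the human minigene was not analysed here. *Gapdh*, a glycolytic enzyme often used as a reference, had a log2 fold change of 0.39 ± 0.38 (SE, adjusted p = 0.615).

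Depth was low and uneven. One read was worth a fixed step in each file, which gave 2028489 to 5160411 reads in the *Upf3b*-GalNAc-ASO mice and 1200938 to 7334110 in the control mice. These are estimates from the values, for reads assigned to genes. The study's methods state an average depth several times higher, and the reason for the difference was not tested. A level of 3 reads, taken as the limit of detection for counting error only, corresponded to 0.406 to 2.48 TPM. Male and female mice separated by the Y-linked *Ddx3y* (14.7 to 67.1 TPM against 0 to 0.375 TPM) as labelled. The first principal component (21.5% of the variance) separated the groups, from 11.8 to 80.3 in *Upf3b*-GalNAc-ASO and from -51.7 to -14.7 in control mice. *Upf3b*-GalNAc-ASO replicate 2 stood apart: its 50 most abundant genes held 38.3% of all TPM, against 27.1% to 30.9% in the other 10 mice. In this male the acute-phase genes *Saa1* and *Saa2* were at 6181 and 12829 TPM, where the highest of the other 4 *Upf3b*-GalNAc-ASO mice had 133 and 138 TPM (2 genes chosen after their values were seen). Whether the mice are littermates is not given in the sources used here, so the p-values measure the spread between these mice. 

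With *Upf3b*-GalNAc-ASO, 5 of 19 pericentral genes tested, 4 of 20 drug and bile acid transporters and 5 of 21 alpha-1 antitrypsin paralogs and major urinary proteins fell, and so did the hepatic lipase *Lipc*, the thyroid hormone receptor *Thrb* and the growth hormone receptor *Ghr*. The p53 target *Phlda3*, the glutathione transferase *Gsta1*, the NMD substrate *Zfas1*, the heme scavenger *Hpx* and 3 of 46 interferon-stimulated genes rose, while 1 interferon-stimulated gene, *Helz2*, fell (not called without control replicate 3 or *Upf3b*-GalNAc-ASO replicate 6). With 1 mouse left out, 4 to 5 pericentral genes, 1 to 4 transporters and 3 to 7 of the antitrypsin and urinary protein genes were lowered, and 0 to 5 interferon-stimulated genes were raised. The transporters were at 1 without control replicate 2, control replicate 3 or *Upf3b*-GalNAc-ASO replicate 1, and the interferon-stimulated genes at 0 without control replicate 1, control replicate 3 or *Upf3b*-GalNAc-ASO replicate 1. The antitrypsin and urinary protein genes were at 3 without control replicate 1, 2, 5 or 6 or *Upf3b*-GalNAc-ASO replicate 1 or 6. In all, 236 genes passed an adjusted p of 0.05 (2.52% of those tested): 87 were raised (0.928%) and 149 lowered (1.59%). At a change of 2-fold or more with a limma p of 0.01 or less, 584 genes (6.23%) passed, 221 higher and 363 lower. These are the thresholds of the study, but its p-values came from a negative binomial model for each replicate, summarised by their median. Counts from the 2 tests are therefore not directly comparable. The 2 groups of mice did not overlap in 326 genes (3.48%). The median log2 fold change of all tested genes was -0.12. Scaling by quantiles or by medians moved that median to -0.01 and -0.02, and the split of raised and lowered genes to 132 and 135, and to 151 and 130. At the study's thresholds the splits were 298 and 301, and 301 and 290. Log2 fold changes below are as fitted, without correction for this shift. Of the 236 calls, 58 (23 raised and 35 lowered) held whichever single mouse was left out, and the count fell to 70 without control replicate 3 and to 101 without *Upf3b*-GalNAc-ASO replicate 1. Without *Upf3b*-GalNAc-ASO replicate 2, the mouse that stood apart, it was 270. Below, a call is described as held where it passed without any single mouse. Otherwise the highest adjusted p is given with the mouse whose omission gave it.

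**Figure D1:**
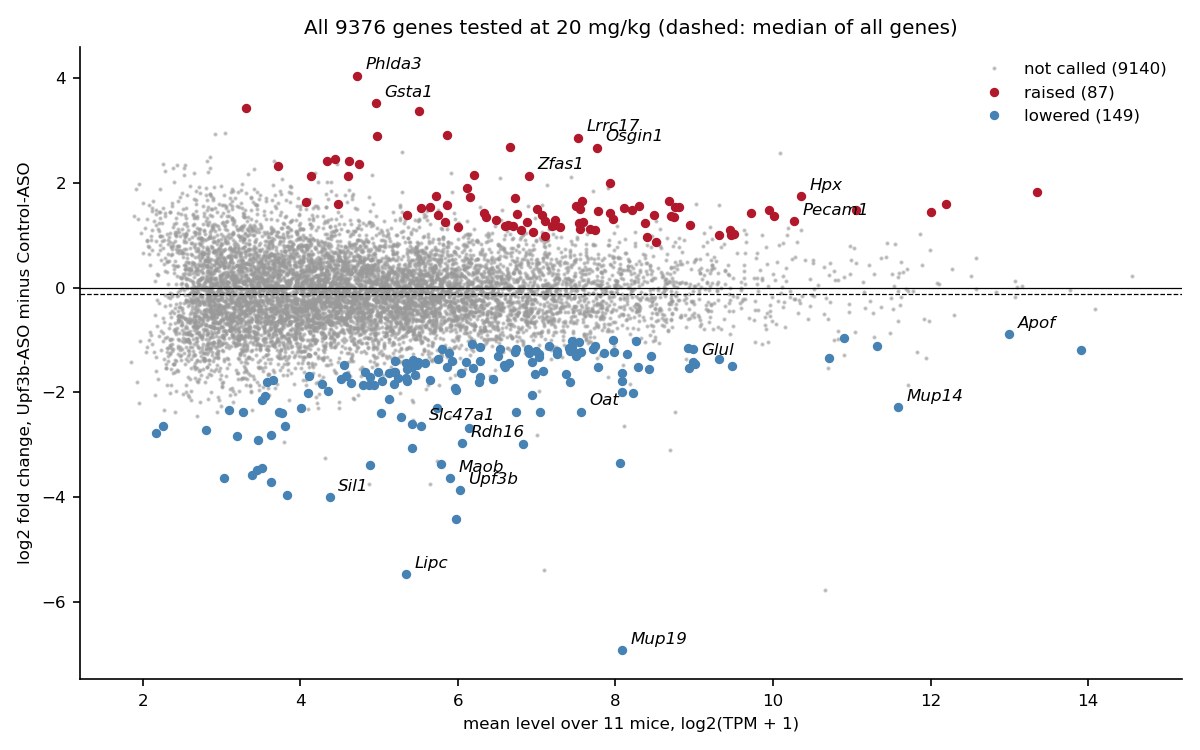
Each point is 1 of the 9376 genes tested: the x axis is the mean level over the 11 mice in log2(TPM + 1) and the y axis the log2 fold change of *Upf3b*-GalNAc-ASO against Control-GalNAc-ASO. The 87 raised genes (red) and 149 lowered genes (blue) lie on both sides of a median of -0.12 (dashed), with *Lipc* at -5.47 and *Phlda3* at 4.05.

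**Figure D2:**
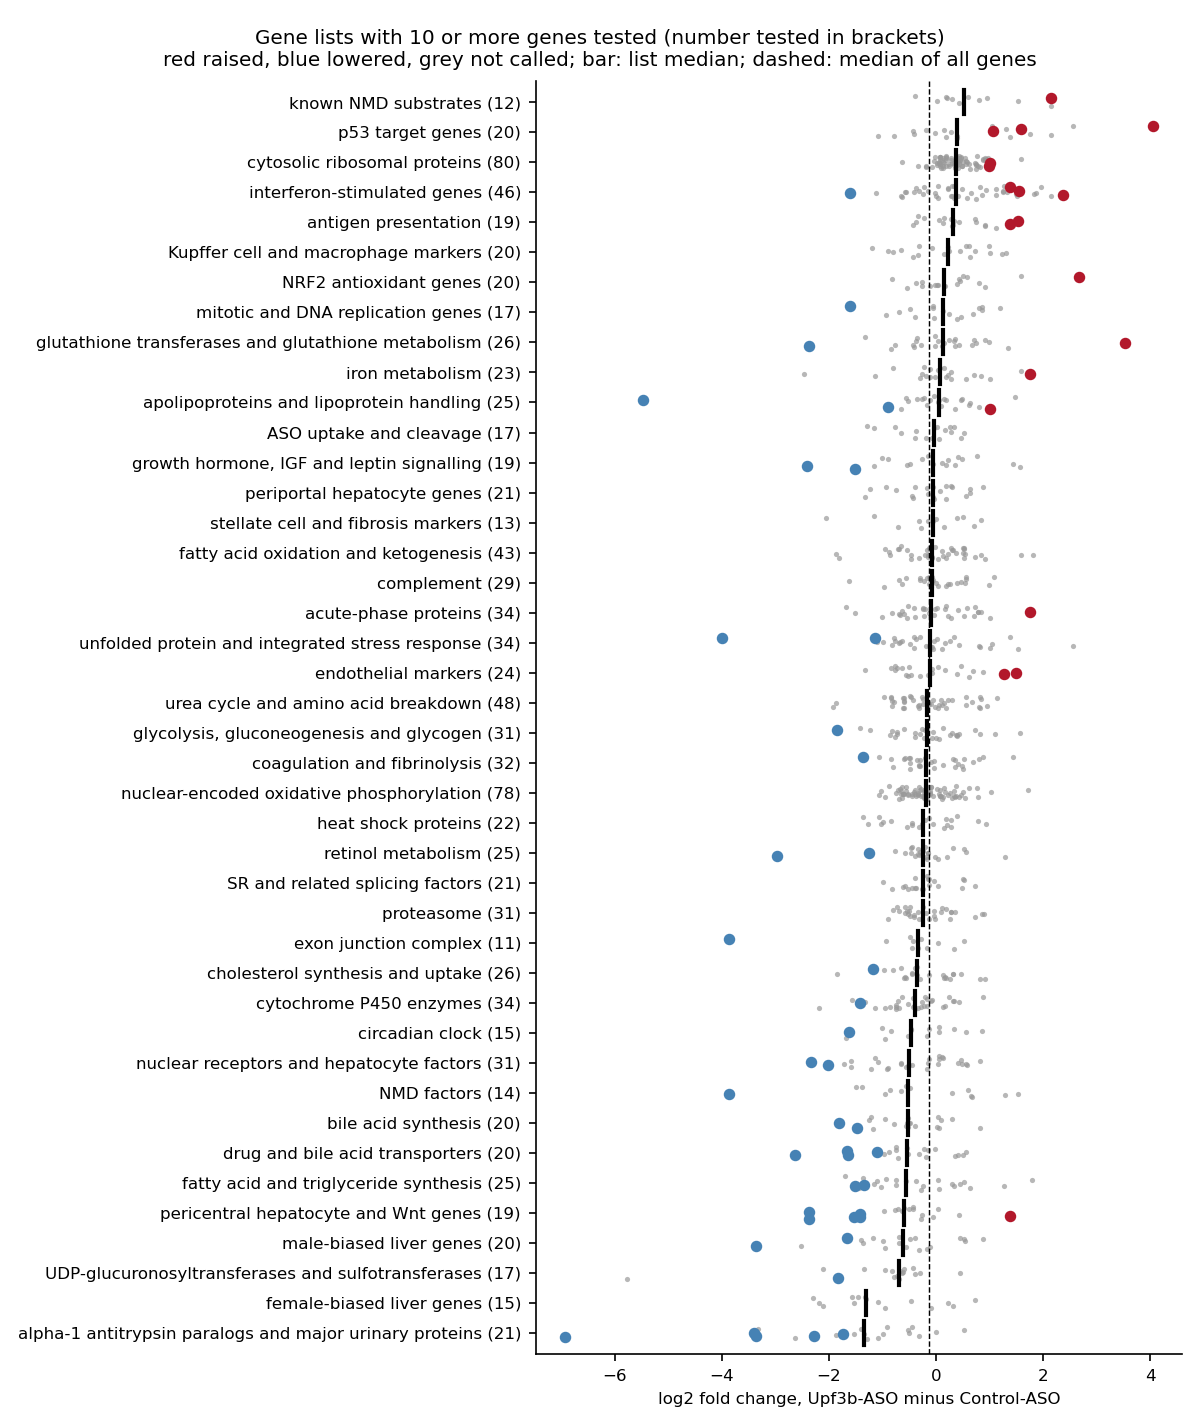
Log2 fold changes (x axis) of the genes of each list with 10 or more genes tested, with the number tested in brackets. Red and blue points are genes raised and lowered at an adjusted p under 0.05, the bars are list medians and the dashed line is the median of all genes. The known NMD substrates sit highest (median 0.52) and the alpha-1 antitrypsin paralogs and major urinary proteins lowest (-1.34). The lists were chosen with earlier results of these data known, so this order is descriptive only.

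Among the NMD factors, 14 of 15 listed genes were tested and *Upf3b* was the only one called. The list median was -0.51 (-0.19 without *Upf3b*-GalNAc-ASO replicate 6 and -0.31 without replicate 2), with 4 higher and 3 lower at an unadjusted p under 0.05, and 6 of 14 genes had a log2 fold change above 0, against 43.2% of all genes. The helicase gene *Upf1* (chosen after its values were seen, like *Upf3a* and *Smg9*) had 34.5, 18.6, 12.4, 31.7 and 18.9 TPM against control values of 0 to 24.9 TPM with a median of 8.80, with a log2 fold change of 1.53 ± 0.70 (SE, adjusted p = 0.25). *Upf2*, the partner of UPF3B, had 0.66 ± 0.31 (SE, adjusted p = 0.257) and the endonuclease gene *Smg6* -0.86 ± 0.35 (SE, adjusted p = 0.188). The paralog *Upf3a* had -0.48 ± 0.62 (SE, adjusted p = 0.719), at 15.5, 12.5, 3.22, 8.30 and 0.616 TPM, and its groups overlapped. *Smg9*, a cofactor of the UPF1 kinase, was between 22.8 and 46.3 TPM with *Upf3b*-GalNAc-ASO and between 6.86 and 14.3 TPM in control mice, without overlap, but did not pass the test over all genes (log2 fold change 1.28 ± 0.38, SE, adjusted p = 0.0757). Of the exon junction complex, 11 of 12 genes were tested, with a median of -0.34 that moved to -0.10 without *Upf3b*-GalNAc-ASO replicate 6, where all genes had a median of -0.16, and again only *Upf3b* was called. Its core member *Magoh* had -0.34 ± 0.27 (SE, adjusted p = 0.538) and the splicing-linked *Sap18* -0.28 ± 0.32 (SE, adjusted p = 0.672).

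Known NMD substrates were represented by 15 of 24 listed symbols, of which 12 were tested. Of these, 11 had a log2 fold change above 0, and 1 was called. Their median was 0.52, and with 1 mouse left out it lay between 0.37 (without control replicate 6) and 0.81 (without *Upf3b*-GalNAc-ASO replicate 1). *Zfas1*, a non-coding host of small nucleolar RNAs whose spliced transcript is a known NMD target, was at 204, 162, 189.8, 181 and 294 TPM against 26.8 to 81.3 TPM with a median of 43.5 in control mice. All 5 values lay above all 6 control values, and the log2 fold change of 2.14 ± 0.30 (SE, adjusted p = 0.000356) held. *Atf4*, the transcription factor of the integrated stress response, had 0.80 ± 0.25 (SE, adjusted p = 0.0883) and the ribosomal protein gene *Rps9* 0.43 ± 0.22 (SE, adjusted p = 0.298), neither past the test. Exons of *Zfas1* share positions with *Znfx1* on the opposite strand. SR and related splicing factors, many of which carry poison exons, had no call by limma among 21 genes tested (0 higher and 2 lower at an unadjusted p under 0.05, median -0.23), and their most abundant members *Srsf5* and *Hnrnpa2b1* had -0.23 ± 0.22 (SE, adjusted p = 0.603) and -0.15 ± 0.24 (SE, adjusted p = 0.777). A level per gene does not separate productive from NMD-sensitive isoforms.

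The largest fall among genes whose mice did not overlap was that of *Lipc*, hepatic lipase, which hydrolyses triglycerides and phospholipids of lipoproteins. It was at 0, 0.960, 0, 2.44 and 0 TPM, with 0 to 5 reads per mouse, against 25.9 to 138 TPM with a median of 68.9 in control mice. Its log2 fold change of -5.47 ± 0.52 (SE, adjusted p = 7.99e-06) held. *Sil1*, a nucleotide exchange factor of the endoplasmic reticulum chaperone BiP, fell from 20.3 to 48.7 TPM with a median of 34.98 to 5.11, 0.384, 1.38, 0.977 and 0 TPM (log2 fold change -3.998 ± 0.52, SE, adjusted p = 0.000263). Monoamine oxidase B (*Maob*) was at 17.5, 0.768, 11.5, 1.95 and 13.95 TPM against 55.96 to 151 TPM with a median of 96.9, a log2 fold change of -3.63 ± 0.45 (SE, adjusted p = 0.000117). *Plcb1*, a phospholipase C, fell by 3.71 on the log2 scale (adjusted p = 0.000482), *Bre*, a subunit of BRCA1-linked deubiquitinase complexes, by 3.58 (adjusted p = 0.00111) and *Ric8b*, a chaperone of G protein alpha subunits, by 3.43 (adjusted p = 0.00515). All of these calls held. *Zfp442*, a zinc finger gene, and *Gm13231*, annotated as a processed pseudogene, were listed at 0 in all 5 *Upf3b*-GalNAc-ASO mice. Set against 3 reads per library, averaged over the 5 libraries, they were at least 25.9-fold and at least 14.1-fold lower. *Gm5963*, a processed pseudogene, and *Gm10273* followed at log2 fold changes of -4.42 ± 0.81 (SE, adjusted p = 0.0148) and -3.48 ± 0.65 (SE, adjusted p = 0.00605). Reads of such copies and of their parent genes cannot be told apart with certainty, and *Gm5963* lost its call without *Upf3b*-GalNAc-ASO replicate 1 (adjusted p = 0.0683). *Dpyd*, which starts pyrimidine breakdown (chosen after its values were seen), had -3.06 ± 0.41 (SE, adjusted p = 0.00031) and held.

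The largest rise was that of *Phlda3*, a p53 target that restrains AKT. It was at 86.5, 15.7, 46.5, 33.7 and 81.7 TPM against 0 to 4.96 TPM with a median of 2.52 in control mice and 4.64 ± 3.60 TPM (SD, n = 11) in DPBS mice, a log2 fold change of 4.05 ± 0.48 (SE, adjusted p = 8.54e-05). *Gsta1*, an alpha-class glutathione transferase, was at 62.8, 18.4, 107, 69.5 and 43.3 TPM against 0 to 10.2 TPM with a median of 5.74 (log2 fold change 3.53 ± 0.63, SE, adjusted p = 0.00515). *Gsta1* has a near-identical copy, *Gsta2*, so the share of each is uncertain. *Osgin1*, an oxidative stress-induced growth inhibitor, was at 236, 473, 459, 378 and 427 TPM against 25.2 to 154 TPM with a median of 57.9 (log2 fold change 2.68 ± 0.36, SE, adjusted p = 0.000314). *Prss8*, the membrane serine protease prostasin, rose by 2.92 (adjusted p = 0.0033), *Cblc*, a ubiquitin ligase, by 2.89 (adjusted p = 0.0124), *Lrrc17*, a leucine-rich repeat gene, by 2.87 (adjusted p = 0.00132) and *Elp6*, a subunit of the Elongator complex, by 2.69 (adjusted p = 0.00138), all on the log2 scale. These 7 calls held. The other 5 of the 12 lost their calls without single mice: *Ccdc36* (log2 fold change 3.38 ± 0.81, SE, adjusted p = 0.0477), *Vps37b* (log2 fold change 2.45 ± 0.57, SE, adjusted p = 0.0255), *Adrb3* (log2 fold change 2.42 ± 0.58, SE, adjusted p = 0.0299), *Zbp1* (log2 fold change 2.37 ± 0.56, SE, adjusted p = 0.0292) and *Ube2m* (log2 fold change 2.33 ± 0.56, SE, adjusted p = 0.0299). Without control replicate 3 the adjusted p of *Ccdc36*, *Vps37b* and *Adrb3* was 0.135, 0.0791 and 0.0839, and without *Upf3b*-GalNAc-ASO replicate 1 that of *Zbp1* and *Ube2m* was 0.111 and 0.101. Exons of *Prss8*, *Lrrc17* and *Vps37b* share positions with the opposite-strand genes *Kat8*, *Fbxl13* and *Hip1r*.

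**Figure D3:**
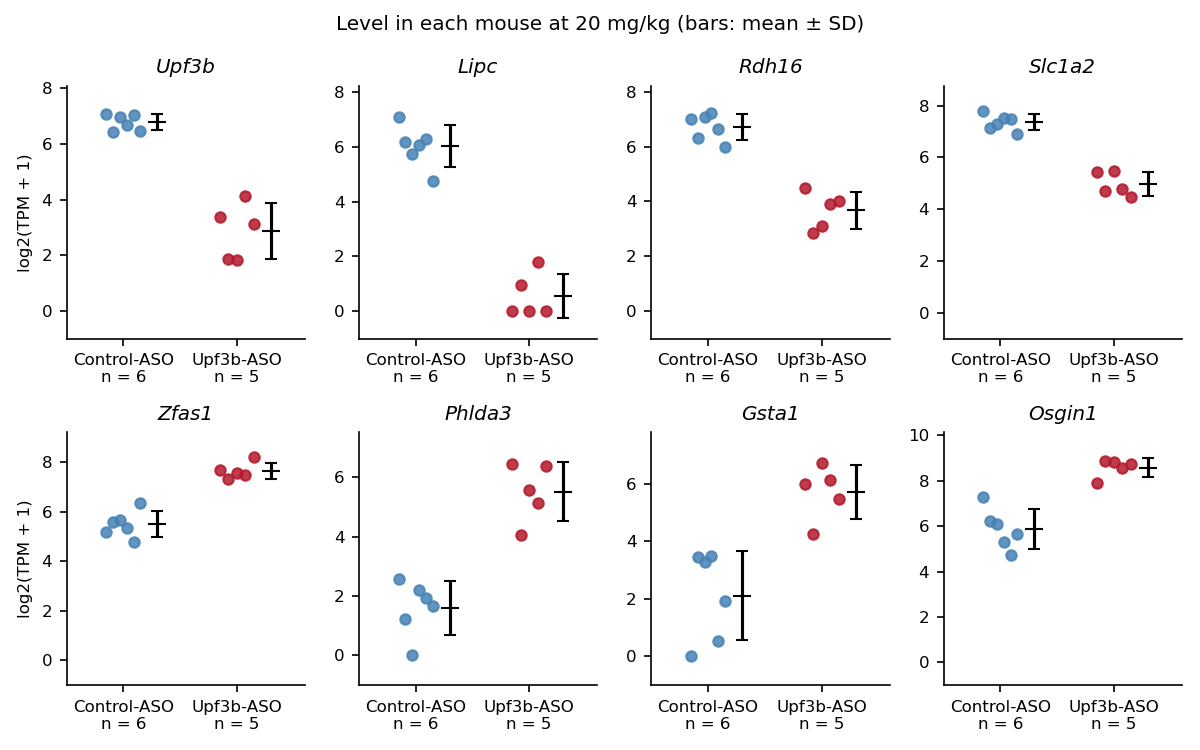
Levels of 8 genes in each mouse as log2(TPM + 1), with Control-GalNAc-ASO in blue (n = 6), *Upf3b*-GalNAc-ASO in red (n = 5) and bars for mean ± SD. In all 8 genes the groups do not overlap, as in 326 of all 9376 genes tested (3.48%). *Lipc*, *Phlda3*, *Gsta1* and *Osgin1* were named by a rule that required this, and *Upf3b* is the target. *Upf3b*, *Lipc*, *Rdh16* and *Slc1a2* are lower and *Zfas1*, *Phlda3*, *Gsta1* and *Osgin1* higher with *Upf3b*-GalNAc-ASO.

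The lowered genes had longer genomic spans than the raised ones. The annotated span, from the first to the last base of a gene (GENCODE, GRCm38), had a median of 56039 bases among 148 lowered genes with a match, 17429 among 86 raised genes and 24010 among 9350 tested genes. Spans above 100000 bases occurred in 32.4%, 18.6% and 12.1% of them. When the tested genes were divided by span into 5 groups of equal size, 3.42% of the longest group (66789 bases or more) were lowered, against 1.12% of the shortest (7875 bases or less). The median log2 fold change was 0.07, 0.03, -0.13, -0.17 and -0.40 from the shortest to the longest group, and with any 1 mouse left out that of the longest group stayed between -0.43 and -0.33. In each mouse, the median level of the longest group minus that of the shortest, relative to the DPBS means, was -0.43 to -0.21 with *Upf3b*-GalNAc-ASO and 0.03 to 0.23 with Control-GalNAc-ASO, so the groups did not overlap. DPBS mice ranged from -0.14 to 0.17. At 10 mg/kg of *Upf3b*-GalNAc-ASO 4 of 5 mice lay between -0.30 and -0.04, and 1 stood apart at 0.999. Their controls at 15 mg/kg lay between -0.12 and 0.02 and overlapped them. The median log2 fold change at 10 mg/kg went from -0.14 in the shortest group to 0.03 in the longest, opposite in direction to that at 20 mg/kg. That comparison includes the mouse at 0.999, replicate 3, which had the fewest reads of the whole series (1012526). It was not repeated without this mouse, so a reversed direction at 10 mg/kg is not established. No test was made of this division, which was chosen after the values of the lowered genes were seen. A run of 12 or more bases complementary to the ASO was present in the annotated transcripts of 2 of the 148 lowered genes (1.35%), *Upf3b* included, in none of the raised genes and in 11 of all tested (0.118%). *Upf3b*, the target, matches by design and is counted in both the 2 and the 11, so these shares are no measure of enrichment. Introns were not searched. 

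**Figure D4:**
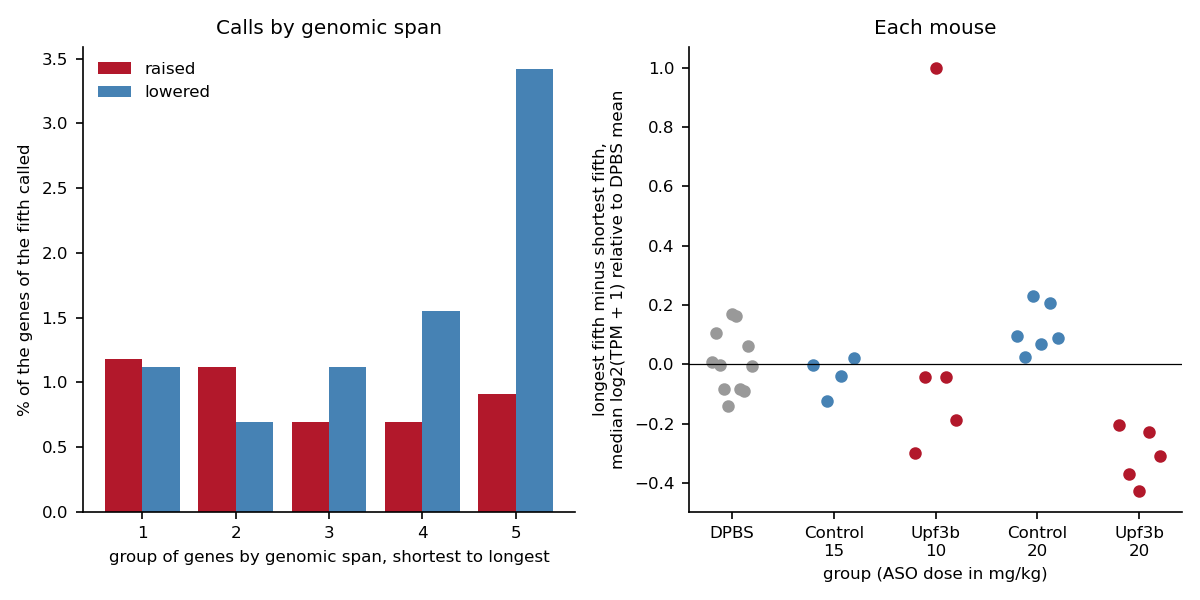
Left, the share of genes raised (red) and lowered (blue) in each of 5 equal groups of the tested genes by genomic span, where 3.42% of the longest group were lowered. Right, 1 point per mouse for the median log2(TPM + 1) of the longest group minus that of the shortest, relative to the DPBS mean, for DPBS (grey), Control-GalNAc-ASO (blue) and *Upf3b*-GalNAc-ASO (red) at each dose in mg/kg.

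Of the drug and bile acid transporters, 20 of 26 were tested and 4 were lowered, with none raised (median -0.53, and 4 of 20 with a log2 fold change above 0). *Slc47a1* encodes MATE1, which exports organic cations into bile. It was at 8.95, 1.54, 15.7, 22.5 and 12.3 TPM against 29.4 to 128 TPM with a median of 69.1 (log2 fold change -2.64 ± 0.49, SE, adjusted p = 0.00601), without overlap, and held. The uptake transporters *Slco1a1* and *Slco1b2* had -1.66 ± 0.37 (SE, adjusted p = 0.0204) and -1.10 ± 0.27 (SE, adjusted p = 0.0326), and the groups overlapped in both. *Abcc2* encodes MRP2, the canalicular pump for conjugated bilirubin. It was at 160.2, 23.2, 157, 204 and 133 TPM against 213 to 553 TPM with a median of 411 (log2 fold change -1.64 ± 0.42, SE, adjusted p = 0.0477), and replicate 2 was far below the other 4. The calls of *Slco1b2* and *Abcc2* were lost without control replicate 3 (adjusted p = 0.0839 and 0.134) and that of *Slco1a1* without *Upf3b*-GalNAc-ASO replicate 1 (adjusted p = 0.0834). *Slc10a1* (NTCP, the sodium-dependent bile acid importer, chosen after its values were seen) had -0.97 ± 0.30 (SE, adjusted p = 0.084).

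Of the cytochrome P450 enzymes, 34 of 49 were tested. One was lowered, *Cyp2c37* (log2 fold change -1.42 ± 0.35, SE, adjusted p = 0.0353), which lost its call without control replicate 3 (adjusted p = 0.111), and 7 of 34 had a log2 fold change above 0 (median -0.40). At an unadjusted p under 0.05, 10 were lower and 1 higher, where 11.4% of all genes were lower and 7.32% higher by the same limit. The most abundant, *Cyp2e1*, which oxidises ethanol, and *Cyp2a5*, which oxidises coumarin, had -0.64 ± 0.27 (SE, adjusted p = 0.212) and 0.44 ± 0.38 (SE, adjusted p = 0.564). Among UDP-glucuronosyltransferases and sulfotransferases, 17 of 28 were tested, 1 of 17 had a log2 fold change above 0 and 9 were lower at an unadjusted p under 0.05 (median -0.68). *Sult1b1*, which sulfates thyroid hormones and phenols, was at 14.1, 7.49, 4.14, 4.40 and 3.90 TPM against 13.1 to 51.2 TPM with a median of 22.1 (log2 fold change -1.83 ± 0.48, SE, adjusted p = 0.0471, and 0.118 for the adjusted p without control replicate 6). *Ugt1a9* ranged from 0 to 1124 TPM against 1025 to 4147 TPM with a median of 2999.9, with -5.77 ± 1.52 (SE, adjusted p = 0.0907). It shares its 3′ exons with the other *Ugt1a* genes, so its value may include theirs. The phenol sulfotransferase *Sult1a1* had -0.96 ± 0.31 (SE, adjusted p = 0.103). Glutathione genes moved in both directions: of 26 of 29 tested, *Gsta1* rose and *Gstt3*, a theta-class transferase, fell, at 33.2, 60.3, 33.2, 9.28 and 29.1 TPM against 74.9 to 383 TPM with a median of 183 (log2 fold change -2.38 ± 0.41, SE, adjusted p = 0.00391, held). Of the NRF2 antioxidant genes, 20 of 25 were tested and *Osgin1* alone was called. *Hmox1*, heme oxygenase, was at 3968 TPM in *Upf3b*-GalNAc-ASO replicate 2 and at 171 to 276 TPM in the other 4, with 1.59 ± 0.73 (SE, adjusted p = 0.281), and the peroxiredoxin *Prdx1* had -0.37 ± 0.29 (SE, adjusted p = 0.517).

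Pericentral genes gave the largest share of calls among the metabolic lists, with 6 of 19 tested (24 listed). Of these, 5 were lowered and 1 raised, the median was -0.60 and 3 of 19 had a log2 fold change above 0. The lists were chosen with earlier results of these data known, so their ranking is descriptive only. *Slc1a2* encodes the glutamate transporter GLT-1, which supplies pericentral hepatocytes. It was at 42.2, 24.7, 43.5, 26.8 and 21.2 TPM against 119 to 222 TPM with a median of 168 (log2 fold change -2.37 ± 0.28, SE, adjusted p = 8.54e-05). *Oat*, ornithine aminotransferase, was at 50.3, 116, 51.1, 23.9 and 69.2 TPM against 254 to 369 TPM with a median of 287 (log2 fold change -2.37 ± 0.32, SE, adjusted p = 0.00031). *Glul*, glutamine synthetase, which fixes ammonia in the last rows of hepatocytes around the central vein, was at 316, 195, 227, 248 and 321 TPM against 526 to 917 TPM with a median of 679.8 (log2 fold change -1.41 ± 0.23, SE, adjusted p = 0.00241). None of these 3 overlapped between the groups, and their calls held, as did that of *Nrn1*, a neuritin (log2 fold change -1.52 ± 0.27, SE, adjusted p = 0.00391), whose groups overlapped. *Cyp2c37* was also lowered. Exons of *Slc1a2*, *Glul* and *Nrn1* share positions with opposite-strand genes (*Gm13872*, *Teddm2* and *Fars2*), as do those of *Cyp51* (*Akap9*), *Tap1* (*Psmb9*), *Egfl7* (*Agpat2*) and *Upf1* (*Cers1* and *Gdf1*). In the other direction, *Znrf3*, a ubiquitin ligase that removes Wnt receptors and is itself a Wnt target, was at 226, 174, 159, 228 and 199.7 TPM against 47.9 to 144 TPM with a median of 70.97 (log2 fold change 1.39 ± 0.28, SE, adjusted p = 0.0118), and lost its call by a small margin without control replicate 3 (adjusted p = 0.0521). DPBS mice had 159.8 ± 106 TPM (SD, n = 11) of *Znrf3*. Of the periportal genes, 21 of 21 were tested and none was called by limma (1 higher and 3 lower at an unadjusted p under 0.05, median -0.05). Their most abundant members *Alb* and *Ass1*, for albumin and argininosuccinate synthase, had -0.05 ± 0.21 (SE, adjusted p = 0.927) and 0.57 ± 0.30 (SE, adjusted p = 0.321).

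Urea cycle and amino acid breakdown genes held no call by limma among 48 of 49 tested (7 higher and 9 lower at an unadjusted p under 0.05, median -0.17). *Mat1a*, which makes S-adenosylmethionine, had -0.17 ± 0.25 (SE, adjusted p = 0.744). In glycolysis, gluconeogenesis and glycogen metabolism, 31 of 33 were tested and 1 was lowered: *Gbe1*, the glycogen branching enzyme, was at 36.2, 7.30, 15.2, 11.2 and 8.62 TPM against 31.4 to 63.6 TPM with a median of 53.5 (log2 fold change -1.85 ± 0.39, SE, adjusted p = 0.0148, and 0.0622 for the adjusted p without control replicate 3). The gluconeogenic *Pck1* was at 1525, 3835, 1382, 1772 and 1712 TPM against 2196 to 10234 TPM with a median of 4382, with -1.22 ± 0.35 (SE, adjusted p = 0.0702).

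Lipid genes were called at several steps, and all of those called were lowered except *Apoa5*. In fatty acid and triglyceride synthesis, 25 of 28 were tested, 2 were lowered and 11 were lower at an unadjusted p under 0.05, with 2 higher (median -0.56). *Lpin1*, a phosphatidate phosphatase, was at 140.4, 301, 109, 113 and 112 TPM against 201 to 638 TPM with a median of 457 (log2 fold change -1.51 ± 0.32, SE, adjusted p = 0.0148). *Scd1*, stearoyl-CoA desaturase, was at 895, 1409, 539, 1371 and 492 TPM against 1277 to 3777 TPM with a median of 1900.5 (log2 fold change -1.33 ± 0.32, SE, adjusted p = 0.0311). Both overlapped, and both calls were lost without control replicate 3 (adjusted p = 0.0648 and 0.111). *Acacb*, acetyl-CoA carboxylase 2, and *Me1*, malic enzyme, both chosen after their values were seen, had -1.44 ± 0.40 (SE, adjusted p = 0.0578) and -1.03 ± 0.32 (SE, adjusted p = 0.084). In cholesterol synthesis and uptake, 26 of 26 were tested and *Cyp51*, lanosterol demethylase, was lowered (log2 fold change -1.17 ± 0.31, SE, adjusted p = 0.0477, and 0.132 for the adjusted p without control replicate 3). The sterol isomerase *Ebp* had 0.13 ± 0.25 (SE, adjusted p = 0.81). Bile acid synthesis had 20 of 21 tested and 2 lowered (median -0.52, or -0.33 without *Upf3b*-GalNAc-ASO replicate 2), and 0 were lowered by limma without control replicate 3. *Cyp39a1*, an oxysterol 7-alpha-hydroxylase, was at 162, 32.4, 11.5, 63.5 and 101 TPM against 90.3 to 502 TPM with a median of 212 (log2 fold change -1.80 ± 0.38, SE, adjusted p = 0.0148), and *Akr1d1*, which reduces the steroid ring, was at 19.96, 6.14, 11.5, 5.86 and 12.9 TPM against 25.9 to 41.03 TPM with a median of 29.8 (log2 fold change -1.47 ± 0.36, SE, adjusted p = 0.0349). Without control replicate 3 their adjusted p was 0.0648 and 0.102. Of the apolipoproteins and lipoprotein genes, 25 of 27 were tested. *Lipc* and *Apof*, an inhibitor of cholesteryl ester transfer, were lowered (log2 fold change -0.89 ± 0.23, SE, adjusted p = 0.0469 for *Apof*), and *Apoa5*, which promotes lipolysis of triglyceride-rich lipoproteins, was raised, at 942, 822, 741, 931 and 868 TPM against 289 to 663 TPM with a median of 421 (log2 fold change 1.01 ± 0.23, SE, adjusted p = 0.0255). The adjusted p of *Apof* and *Apoa5* was 0.129 and 0.101 without control replicate 3. Fatty acid oxidation and ketogenesis had no call by limma among 43 of 45 tested, with 8 higher and 5 lower at an unadjusted p under 0.05 (median -0.07). Its abundant members *Fabp1* and *Acaa1b* had -0.87 ± 0.44 (SE, adjusted p = 0.314) and 0.37 ± 0.27 (SE, adjusted p = 0.473).

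Of the nuclear receptors and hepatocyte factors, 31 of 35 were tested, with a median of -0.51, or -0.29 without *Upf3b*-GalNAc-ASO replicate 2. *Thrb*, the main thyroid hormone receptor of liver, was at 4.05, 4.22, 10.1, 5.37 and 4.51 TPM against 15.96 to 33.1 TPM with a median of 23.6 (log2 fold change -2.01 ± 0.42, SE, adjusted p = 0.0147), without overlap, and this fall held. *Dio1*, the deiodinase that activates thyroxine (chosen after its values were seen), was at 4.90, 6.91, 34.1, 36.6 and 14.98 TPM against 49.2 to 204 TPM with a median of 106 (log2 fold change -2.67 ± 0.50, SE, adjusted p = 0.00762), and held. In growth hormone, IGF and leptin signalling, 19 of 21 were tested and 2 were lowered. The growth hormone receptor *Ghr* was at 32.2, 27.1, 75.5, 48.8 and 63.2 TPM against 104 to 193 TPM with a median of 125 (log2 fold change -1.51 ± 0.31, SE, adjusted p = 0.0118), without overlap. Its adjusted p was 0.0509 without *Upf3b*-GalNAc-ASO replicate 1. The leptin receptor *Lepr* was at 4.99, 4.55, 0.876, 0 and 7.83 TPM against 9.36 to 32.9 TPM with a median of 19.97 (log2 fold change -2.40 ± 0.57, SE, adjusted p = 0.0286, and 0.0965 for the adjusted p without control replicate 3), and DPBS mice had 8.08 ± 4.52 TPM (SD, n = 11), a mean below every control mouse. Retinol metabolism had 25 of 32 tested and 2 lowered. *Rdh16*, a retinol dehydrogenase, was at 21.6, 6.15, 7.67, 14.2 and 15.03 TPM against 62.8 to 150.5 TPM with a median of 114 (log2 fold change -2.97 ± 0.33, SE, adjusted p = 4.13e-05) and held, and *Rdh11* had -1.25 ± 0.30 (SE, adjusted p = 0.03), and 0.0805 for the adjusted p without *Upf3b*-GalNAc-ASO replicate 6. Of the circadian clock genes, 15 of 20 were tested and the output factor *Hlf* was lowered (log2 fold change -1.62 ± 0.36, SE, adjusted p = 0.0204, and 0.0791 for the adjusted p without control replicate 3). *Tef* and *Nr1d2* of the same list had 0.06 ± 0.28 (SE, adjusted p = 0.93) and -0.52 ± 0.31 (SE, adjusted p = 0.385).

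**Figure D5:**
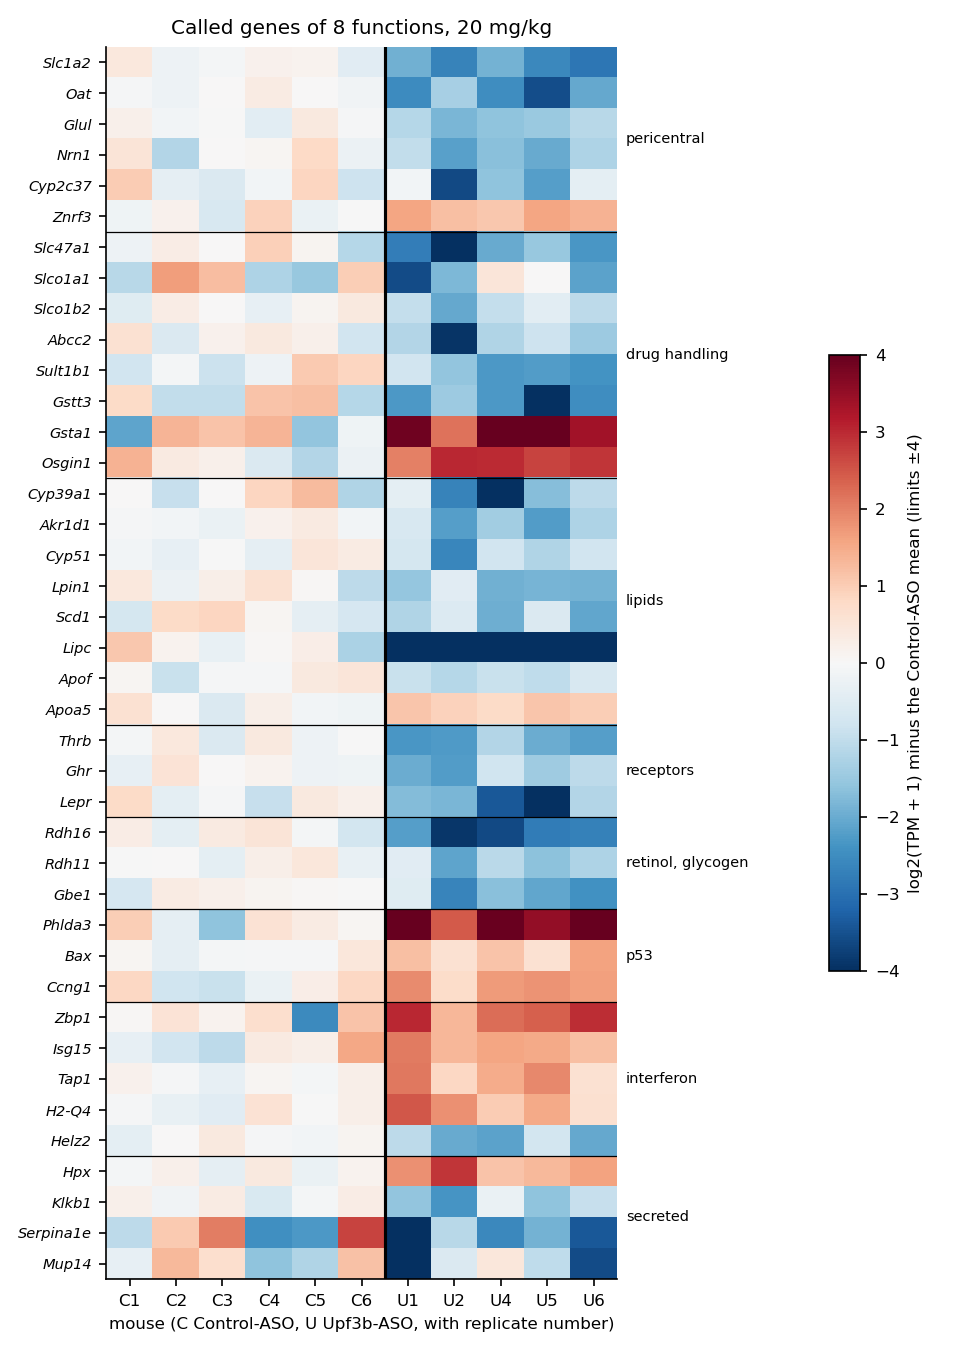
Levels of 40 called genes in each mouse (columns; C, Control-GalNAc-ASO; U, *Upf3b*-GalNAc-ASO) as log2(TPM + 1) minus the control mean, with colours limited to -4 and 4 and genes grouped by function. Only called genes are shown, so the colours follow from the calls and do not describe whole functions. The pericentral, transport, lipid and receptor genes shown are mostly blue in the *Upf3b*-GalNAc-ASO mice. The p53 and interferon genes shown are mostly red, and the interferon group includes *H2-Q4* of the antigen presentation list. *Slco1a1*, *Serpina1e* and *Mup14* vary widely within both groups, but within each sex the groups do not overlap.

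Secreted proteins of hepatocytes were mixed. Of the acute-phase proteins, 34 of 39 were tested and *Hpx*, the heme scavenger hemopexin, was raised, at 2092, 4271, 1285, 1440.2 and 1774 TPM against 452 to 760.0 TPM with a median of 595 (log2 fold change 1.75 ± 0.29, SE, adjusted p = 0.00217, held). Haptoglobin (*Hp*) did not overlap between the groups and missed the test (log2 fold change 1.02 ± 0.28, SE, adjusted p = 0.0578). *Trf*, transferrin, had 0.23 ± 0.24 (SE, adjusted p = 0.647) and the serpin *Serpina3k* -0.63 ± 0.36 (SE, adjusted p = 0.365). *Hpx* was also the only call among 23 of 25 iron metabolism genes tested. In coagulation and fibrinolysis, 32 of 35 were tested and plasma prekallikrein (*Klkb1*) was lowered (log2 fold change -1.35 ± 0.36, SE, adjusted p = 0.0477, and 0.134 for the adjusted p without control replicate 3). Prothrombin (*F2*) and fibrinogen beta (*Fgb*) had -0.36 ± 0.23 (SE, adjusted p = 0.405) and -0.84 ± 0.26 (SE, adjusted p = 0.0851). Complement had no call by limma among 29 of 32 tested (2 higher and 3 lower at an unadjusted p under 0.05), with 0.27 ± 0.22 (SE, adjusted p = 0.542) for *C3* and 0.54 ± 0.21 (SE, adjusted p = 0.182) for *Cfb*. Of the alpha-1 antitrypsin paralogs and major urinary proteins, 21 of 27 were tested and 5 were lowered, with a median of -1.34 and 2 of 21 with a log2 fold change above 0. *Serpina1e* was at 1.92, 92.4, 32.5, 53.3 and 18.3 TPM against 35.8 to 1311 TPM with a median of 257 (log2 fold change -3.35 ± 0.48, SE, adjusted p = 0.00132), *Mup14* at 87.3, 2183, 4466, 1587 and 268 TPM against 1066 to 7899.6 TPM with a median of 3868 (log2 fold change -2.27 ± 0.42, SE, adjusted p = 0.0118) and *Mup19* at 0 to 49.1 TPM against 45.02 to 1674 TPM with a median of 271 (log2 fold change -6.93 ± 0.96, SE, adjusted p = 0.00762). The calls of these 3 held, but the groups overlapped in each. *Mup10* and *Mup18* had -3.39 ± 0.81 (SE, adjusted p = 0.0359) and -1.74 ± 0.43 (SE, adjusted p = 0.0347), and 0.135 and 0.104 for the adjusted p without *Upf3b*-GalNAc-ASO replicate 1. The members are near-identical copies, so the division of reads among them is uncertain.

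Lists of stress pathways held few calls each, where 2.52% of all genes were called (0.928% raised and 1.59% lowered). In lists this short, the counts do not set 1 pathway apart from another. Of the p53 target genes, 20 of 30 were tested and 3 were raised, with none lowered (median 0.40). With 1 mouse left out 1 to 4 were raised. The median was 0.24 without control replicate 3 and 0.60 without *Upf3b*-GalNAc-ASO replicate 1, with 1 gene raised in each. Beside *Phlda3*, the pro-apoptotic *Bax* was at 188, 122, 178, 123 and 249.9 TPM against 62.1 to 109.7 TPM with a median of 78.5 (log2 fold change 1.06 ± 0.26, SE, adjusted p = 0.0355) and cyclin G1 (*Ccng1*) at 40.5, 17.7, 35.5, 38.1 and 34.1 TPM against 5.11 to 19.1 TPM with a median of 10.5 (log2 fold change 1.59 ± 0.42, SE, adjusted p = 0.0477). *Bax* did not overlap and *Ccng1* did. Their adjusted p rose to 0.114 without *Upf3b*-GalNAc-ASO replicate 6 and 0.134 without control replicate 3. *Cdkn1a*, the p53 target p21 and also a listed NMD substrate (chosen after its values were seen), was at 21.7, 259, 1.38, 2.44 and 14.4 TPM against 0 to 10.00 TPM with a median of 2.66, with 2.16 ± 1.01 (SE, adjusted p = 0.268). Its highest value was that of replicate 2. In the unfolded protein and integrated stress response, 34 of 43 were tested and 2 were lowered: *Sil1* and the co-chaperone *Dnajc3* (log2 fold change -1.13 ± 0.29, SE, adjusted p = 0.0446, and 0.143 for the adjusted p without *Upf3b*-GalNAc-ASO replicate 1). *Atf5*, a transcription factor of the stress response outside the lists (chosen after its values were seen), was raised, at 9228, 2478, 3948, 10694 and 5541 TPM against 1228 to 3805 TPM with a median of 2166 (log2 fold change 1.45 ± 0.35, SE, adjusted p = 0.0353, and 0.127 for the adjusted p without *Upf3b*-GalNAc-ASO replicate 1). Heat shock proteins had no call by limma among 22 of 25 tested (1 higher and 5 lower at an unadjusted p under 0.05), with -0.06 ± 0.32 (SE, adjusted p = 0.939) for *Hsp90ab1* and 0.29 ± 0.25 (SE, adjusted p = 0.558) for *Hspd1*. Among mitotic and DNA replication genes, 17 of 47 were tested. Cyclin D1 (*Ccnd1*) was lowered (log2 fold change -1.60 ± 0.41, SE, adjusted p = 0.0474, and 0.132 for the adjusted p without control replicate 3), and thymidylate synthase (*Tyms*) had 0.86 ± 0.39 (SE, adjusted p = 0.239).

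Interferon-stimulated genes leaned upwards. Of 62 listed, 46 were tested, 3 were raised and 1 was lowered. Of all genes, 0.928% were raised and 1.59% lowered. The median was 0.38, and 32 of 46 (69.6%) had a log2 fold change above 0, against 43.2% of all genes. At an unadjusted p under 0.05, 13 were higher and 1 lower, where 7.32% of all genes were higher and 11.4% lower. The mean log2(TPM + 1) of the list per mouse overlapped, at 4.51 to 5.30 with *Upf3b*-GalNAc-ASO and 3.88 to 5.03 in control mice. *Zbp1*, a sensor of Z-form nucleic acids, was at 65.6, 19.6, 37.8, 42.00 and 62.6 TPM against 0.406 to 17.2 TPM with a median of 9.40. *Isg15*, a ubiquitin-like modifier, was at 902, 539.5, 642, 611 and 492 TPM against 104 to 635 TPM with a median of 211 (log2 fold change 1.55 ± 0.37, SE, adjusted p = 0.0313), and *Tap1*, a peptide transporter of antigen presentation, was at 95.4, 38.2, 61.2, 83.03 and 32.6 TPM against 16.6 to 25.01 TPM with a median of 21.5 (log2 fold change 1.39 ± 0.35, SE, adjusted p = 0.0354). *Helz2*, a helicase and coactivator of nuclear receptors, went the other way, at 23.4, 11.5, 10.6, 29.8 and 11.3 TPM against 38.00 to 65.7 TPM with a median of 49.2 (log2 fold change -1.61 ± 0.35, SE, adjusted p = 0.0187). Of the antigen presentation genes, 19 of 22 were tested and *Tap1* and the class I gene *H2-Q4*, which has near-identical relatives, were raised (log2 fold change 1.53 ± 0.31, SE, adjusted p = 0.0117 for *H2-Q4*). Without *Upf3b*-GalNAc-ASO replicate 1 the adjusted p of *Isg15*, *Tap1* and *H2-Q4* was 0.109, 0.143 and 0.0566, and without control replicate 3 that of *Helz2* was 0.0751. At 10 mg/kg, against control at 15 mg/kg, the log2 fold changes of *Zbp1*, *Isg15*, *Tap1* and *H2-Q4* were 2.11, 2.15, 0.24 and 1.34.

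Markers of other liver cells were given beside these values. In bulk liver, fewer cells of a type and less RNA per cell cannot be told apart. Hepatocyte markers were abundant in all mice (*Alb* from 8085 to 22937 TPM with *Upf3b*-GalNAc-ASO), and *Ttr*, *Apoa1* and *Serpina1c* had -0.02 ± 0.25 (SE, adjusted p = 0.973), -0.22 ± 0.28 (SE, adjusted p = 0.719) and -1.08 ± 0.30 (SE, adjusted p = 0.0612). Of the Kupffer cell and macrophage markers, 20 of 32 were tested and none was called by limma (1 higher and 2 lower at an unadjusted p under 0.05). Their summed level was 561 to 1220 TPM with *Upf3b*-GalNAc-ASO and 621 to 1510 TPM in control mice. *Clec4f* and *Cd5l*, which mark Kupffer cells, had -0.07 ± 0.51 (SE, adjusted p = 0.958) and 0.64 ± 0.31 (SE, adjusted p = 0.275), *C1qa* 0.57 ± 0.28 (SE, adjusted p = 0.279) and *Cd163* -0.89 ± 0.29 (SE, adjusted p = 0.0977). Lymphocyte and granulocyte markers were near the limit of detection, with 2 of 28 tested, none called by limma (0 higher and 0 lower at an unadjusted p under 0.05) and summed levels of 24.1 to 56.8 TPM against 24.4 to 128 TPM. *Cd3e* was listed at 0 in all 5 *Upf3b*-GalNAc-ASO mice. Of the endothelial markers, 24 of 28 were tested and 2 were raised. *Pecam1* was at 1647, 1485, 1695, 1876 and 2022 TPM against 429.8 to 1489.9 TPM with a median of 668 (log2 fold change 1.27 ± 0.28, SE, adjusted p = 0.0201) and *Egfl7* at 360.2, 267, 248, 266 and 276 TPM against 70.5 to 153 TPM with a median of 98.04 (log2 fold change 1.496 ± 0.26, SE, adjusted p = 0.00391, held). The adjusted p of *Pecam1* was 0.0815 without control replicate 3. The markers of sinusoidal endothelium gave -0.08 ± 0.52 (SE, adjusted p = 0.951) for *Stab2* and -0.56 ± 0.55 (SE, adjusted p = 0.619) for *Clec4g*, and *Kdr* gave -0.72 ± 0.40 (SE, adjusted p = 0.349). The list median was -0.12, with 10 of 24 genes higher and 14 lower. Its summed level was 2210 to 3140 TPM with *Upf3b*-GalNAc-ASO, 1210 to 2320 TPM in control mice and 1290 to 2950 TPM in DPBS mice. *Pecam1* alone made up most of the sum with *Upf3b*-GalNAc-ASO. Stellate and fibrosis markers had no call by limma among 13 of 28 tested (2 higher and 2 lower at an unadjusted p under 0.05), with -0.27 ± 0.28 (SE, adjusted p = 0.637) for *Dcn* and 0.72 ± 0.30 (SE, adjusted p = 0.199) for *Bgn*. Of the cholangiocyte markers, 3 of 16 were tested and none was called by limma (0 higher and 0 lower at an unadjusted p under 0.05), with a summed level of 38.6 to 231 TPM against 38.9 to 77.5 TPM. The highest sum went with *Sox9* at 180.5 TPM in *Upf3b*-GalNAc-ASO replicate 2. *Krt19* was at 0 to 1.54 TPM in all 11 mice. The part of cell composition in any result was not tested.

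Genes for cytosolic ribosomal proteins leaned to higher levels. Of 82 listed, 80 were tested, 73 had a log2 fold change above 0 and the median was 0.38 (0.40 after quantile normalization). Of all genes, 43.2% had a log2 fold change above 0, and 7.32% were higher at an unadjusted p under 0.05. At an unadjusted p under 0.05, 22 were higher and none lower, and 2 were raised at the adjusted threshold: *Rps19* at 951, 801, 944, 1150.5 and 1112 TPM against 337 to 607 TPM with a median of 516 (log2 fold change 1.02 ± 0.23, SE, adjusted p = 0.0204) and *Rps14* at 955, 801, 974, 721 and 1367 TPM against 353 to 700.4 TPM with a median of 446 (log2 fold change 1.002 ± 0.25, SE, adjusted p = 0.0352). Both were lost without control replicate 3 (adjusted p = 0.0622 and 0.109). The summed level of the list was 31800 to 42800 TPM with *Upf3b*-GalNAc-ASO and 25700 to 33400 TPM in control mice. DPBS mice, at 27400 to 39700 TPM, overlapped both. The mean log2(TPM + 1) of the list was 8.12 with *Upf3b*-GalNAc-ASO, 7.74 in control mice and 7.94 in DPBS mice, which lie between the 2 groups. Many of these genes have processed copies in the genome, with which they can share reads. Nuclear-encoded oxidative phosphorylation had 78 of 78 tested with no call by limma (median -0.19, 5 higher and 14 lower at an unadjusted p under 0.05), and the proteasome 31 of 31 with no call (3 higher and 3 lower at an unadjusted p under 0.05, median -0.24). *Cox6c* and *Atp5g3* had -0.21 ± 0.30 (SE, adjusted p = 0.738) and -0.55 ± 0.23 (SE, adjusted p = 0.197), and *Psmd4* and *Psmd11* 0.28 ± 0.24 (SE, adjusted p = 0.555) and -0.24 ± 0.32 (SE, adjusted p = 0.735). Genes that take up or cut ASOs had no call by limma among 17 of 19 tested (0 higher and 4 lower at an unadjusted p under 0.05), with 0.48 ± 0.29 (SE, adjusted p = 0.389) and 0.26 ± 0.26 (SE, adjusted p = 0.636) for both subunits of the asialoglycoprotein receptor.

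Treatment effects were compared between the sexes with an interaction term. One gene of 9376 passed (0.0107%), and 284 had an unadjusted p under 0.05. With log2(TPM + 0.1) or a median of at least 20 TPM, 0 genes passed by limma, with 245 and 139 at an unadjusted p under 0.05. In *Hamp2*, a hepcidin paralog, the effect in males exceeded that in females by 6.15 on the log2 scale (adjusted p = 0.029), with -5.88 in females and 0.27 in males (3 and 2 females, 3 and 3 males). Its values were 5.13, 9.09, 2.87, 10.3 and 0.842 TPM with *Upf3b*-GalNAc-ASO. Control females had 152, 245 and 206 TPM and control males 7.38, 6.77 and 2.86 TPM. *Hamp2* is near-identical to *Hamp*. Of the female-biased liver genes, 15 of 24 were tested with no call by limma (1 higher and 4 lower at an unadjusted p under 0.05) and a median of -1.30, which was -0.69 without *Upf3b*-GalNAc-ASO replicate 1 and -0.72 without replicate 6. *Cyp2a4* and *Cyp2c40*, 2 of their abundant members, had 0.33 ± 0.34 (SE, adjusted p = 0.649) and -1.56 ± 0.60 (SE, adjusted p = 0.166). Of the male-biased genes, 20 of 22 were tested and *Serpina1e* and *Slco1a1* were lowered (median -0.62).

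Lower doses and vehicle were set beside these values. The effect at 20 mg/kg minus the effect at 10 mg/kg (against control at 15 mg/kg) passed for 0 of 9376 genes by limma (0%, with 769 at an unadjusted p under 0.05). At 10 mg/kg itself, 27 of 9166 genes passed (0.295%). Control-GalNAc-ASO at 20 mg/kg against DPBS passed for 0 of 9140 genes by limma (0%), with 905 at an unadjusted p under 0.05. The 2 doses were tested in different mice with different controls. Of the 87 genes raised at 20 mg/kg, 82 had a log2 fold change above 0 at 10 mg/kg (48.4% of all genes did), with a median of 0.73 against 1.47 at 20 mg/kg. Of the lowered genes, 146 were tested at 10 mg/kg, 120 were below 0 there, and the median was -0.79 against -1.64. At 10 mg/kg, 4 of the raised and 11 of the lowered genes were themselves called. *Upf3b* had -1.73 at 10 mg/kg and -3.87 at 20 mg/kg, with 21.5 ± 19.96 TPM (SD, n = 5) at 10 mg/kg. *Lipc* had -5.86 and -5.47, *Rdh16* -3.08 and -2.97, *Oat* -2.53 and -2.37, and *Slc47a1* -3.28 and -2.64 at 10 and 20 mg/kg, and the differences between the doses did not pass (adjusted p = 0.902, 0.988, 0.979 and 0.848). For *Phlda3* the values were 1.82 and 4.05, for *Osgin1* 1.07 and 2.68, for *Slc1a2* -1.29 and -2.37 and for *Hpx* 0.56 and 1.75, larger at 20 mg/kg, with differences between the doses that did not pass either (adjusted p = 0.418, 0.528, 0.528 and 0.45).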

How the data were processed

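Liver RNA of the 31 mice was sequenced by digital gene expression. The labels name a 3′ mRNA kit (QuantSeq, Lexogen) and the study's methods name TruSeq. Per the labels and methods, the authors used bcl2fastq 2.17.1.14 and quantified reads with Salmon 0.7.2 against mouse Ensembl transcripts (GRCm38.p4), and deposited TPM per gene symbol, 1 file per mouse. Of 31198 symbols, 26 had been turned into dates and were left out. Between 71.0% and 77.5% of the positive values of a mouse at 20 mg/kg were whole multiples of 1 step (within 0.02 of a read), so depth could be estimated, but not all values are whole and no count test was run. Use of strand is not given in the sources used here.

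Values were tested as log2(TPM + 1) in limma 3.58.1 (R 4.3.3) with empirical Bayes moderation (trend, robust) and sex as covariate, in the 11 mice at 20 mg/kg, with Benjamini-Hochberg adjustment over the 9376 genes whose median reached 5 TPM in 1 group or both. A fold change on this scale understates the change of low genes. The test was run on simulated data with known changes before use. *Upf3b* was also tested by a two-sided exact permutation test of mean TPM (scipy). The interaction with sex, the difference between doses and control against DPBS were fitted in the same way. Genes were named by a fixed rule: *Upf3b*; the 12 raised and 12 lowered genes with the largest change among those called and not overlapping; from each of 44 lists up to 6 called members, or the 2 most abundant where fewer than 2 were called; and *F9*, *Gapdh* and *Lipc*. Some results that the rule names are not reported here. Exceptions are marked, apart from markers of the liver's cell types, which were fixed by list. The mice, lists and rule were chosen with earlier results of these data known. No 2 mice were near-identical (highest correlation 0.870). Spans and positions came from GENCODE on GRCm38, the build of the files, and the ASO sequence from the study's supplementary tables. No genome sequence was used. Alternatives were other pseudocounts, filters, scalings, weights and moderation, no sex term, a replicate block and leaving out each mouse.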

Additional observations from a re-analysis of the deposited data

Results flagged for a closer look

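Within the groups, 152 sets of values (76 called genes in 2 groups) were checked for a single mouse far from the others, by the gap to its nearest neighbour as a share of the whole range on the log2(TPM + 1) scale. The limits used flag about 5% of sets by chance where values are normally distributed and the sets independent. These sets come from called genes in the same mice, so that share is only a rough guide. Of the 152 sets, 10 (6.58%) had such a mouse. Of the 10, 6 were *Upf3b*-GalNAc-ASO replicate 2, the mouse with the highest share of TPM in its 50 most abundant genes: it was lowest in *Abcc2* (23.2 TPM), *Cyp51* (106.4 TPM) and *Ccng1* (17.7 TPM), and highest in *Lpin1* (300.9 TPM), *Mup19* (49.1 TPM) and *Gm10273* (6.37 TPM, the other 4 at 0). In the same group, replicate 5 was highest in *Ric8b* (7.33 TPM) and replicate 1 in *Egfl7* (360.2 TPM). Among control mice, replicate 5 was lowest in *Zbp1* (0.406 TPM) and replicate 1 in *Gbe1* (31.4 TPM). Between the sexes, the effect on *Hamp2* differed by 6.15 (males minus females, log2 scale, adjusted p = 0.029 by limma).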

How the results depend on the processing

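The count of 236 called genes was 154 with log2(TPM + 0.1), 67 with no filter on low values (17215 genes tested), 60 without trend and robust moderation, 113 without the mouse of fewest reads in each group and 70 to 270 with 1 mouse left out. The last range was lowest without control replicate 3, and the counts without control replicates 1 and 5 and *Upf3b*-GalNAc-ASO replicates 1 and 6 (143, 134, 101 and 144) were also under the main count by over 1.5 times. Without the sex term, with log2(TPM + 5), a median of at least 20 TPM, quantile normalization, median scaling or array weights it was 232 to 304. At the study's thresholds it was 391 to 654 over all alternatives, and 422 to 654 with 1 mouse left out, against 584. With the replicate number as a block (5 numbers shared, sex kept) 43 genes were called and 391 passed the study's thresholds, against 70 called in the same mice without the block. The numbers were not used as pairs, since same-numbered mice did not deviate together (correlations of -0.27, -0.09, 0.05, 0.10 and 0.05). Over all alternatives and 148 named genes, 2797 values kept their side of the threshold, 424 lost a call, 15 gained one and 0 called values reversed. The *Upf3b* difference ranged from -108.1 to -98.15 TPM with 1 mouse left out and was -3.91 on the log2 scale. The interaction with sex had 0 calls with log2(TPM + 0.1) and 0 with a median of at least 20 TPM. The difference between doses and control against DPBS had 0 calls in each alternative run. Depth limits the results: in the shallowest mouse 3 reads equal 2.48 TPM, so that levels under this are at the limit of detection. The causes of the changes with moderation and filter were not tested, apart from the larger number of genes adjusted for without the filter.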

Other observations

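Some called genes stood outside every list. *Npffr1*, a neuropeptide FF receptor known from the nervous system, was listed at 18211, 24732, 11648, 16102 and 13848 TPM against 2326 to 8303 TPM with a median of 4361 (log2 fold change 1.84 ± 0.29, SE, adjusted p = 0.00132). *Nfia*, a transcription factor, was at 8937, 9176, 4673, 9366 and 5130.1 TPM against 1687 to 3003 TPM with a median of 2387 (log2 fold change 1.61 ± 0.26, SE, adjusted p = 0.00157). *Calb1*, the calcium-binding protein calbindin of neurons and kidney, was at 1209, 1124, 1651, 1257 and 1168 TPM against 311 to 664 TPM with a median of 475 (log2 fold change 1.43 ± 0.25, SE, adjusted p = 0.00357). These 3 calls held without any single mouse, and DPBS mice had 9532 ± 6743 TPM, 4653 ± 3786 TPM and 819 ± 396 TPM (SD, n = 11). With *Upf3b*-GalNAc-ASO the mean listed for *Npffr1* (16908 TPM) was above that of *Alb* (13654 TPM). Whether reads of other transcripts were assigned to these symbols was not tested, so the levels may not be those of the named genes. *Gc*, the vitamin D-binding protein made by hepatocytes, was lowered, at 1142, 980.3, 1440.4, 1055 and 1553 TPM against 1543 to 3324 TPM with a median of 2452 (log2 fold change -0.95 ± 0.24, SE, adjusted p = 0.0355, and 0.111 for the adjusted p without *Upf3b*-GalNAc-ASO replicate 1). These genes were chosen after their values were seen.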
